A study of Mus musculus with 4 samples.

Results

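The genes described here encode the translation initiation factors of mouse oocytes and the proteins that regulate them directly. They were taken as every gene whose symbol starts with Eif followed by a digit, except Eif4e1b and Eif4enif1, in a deposited table of transcript models. The rule gave 53 of 17945 genes, and these carry 158 of the 48574 models. By role, 5 genes belong to eIF1 and eIF1A, 5 to eIF2 and its relatives, 4 are eIF2α kinases, 5 encode eIF2B and 14 encode eIF3. A further 11 belong to eIF4, 3 encode 4E-binding proteins (4E-BPs), 5 belong to eIF5, eIF5A, eIF5B and eIF6, and Eif4a3l1 has no role assigned. Eif2s3y, the copy of the eIF2γ gene on the Y chromosome, has no row in the deposited table and so was not analysed here.

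Initiation places a ribosome carrying the initiator tRNA on the start codon of a messenger RNA. The trimer eIF2 brings the tRNA in a GTP-bound form, eIF2B recharges eIF2 with GTP, and eIF3, eIF1 and eIF1A hold the small ribosomal subunit open for scanning. The cap-binding protein eIF4E, the scaffold eIF4G and the helicase eIF4A recruit the messenger RNA, and the 4E-BPs compete with eIF4G for eIF4E. As it nears full size the oocyte shuts down transcription, and its maturation relies on translation of stored messenger RNA.

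The libraries were made from mouse germinal vesicle oocytes, which are arrested in prophase of meiosis. The oocytes came from females at postnatal day 20 that had received no hormone priming, were freed of cumulus cells and were kept arrested with milrinone, an inhibitor of phosphodiesterase; no genotype or strain is named in the labels. Each living oocyte was put into the NSN class (non-surrounded nucleolus) or the SN class (surrounded nucleolus) from bright-field images by a deep learning pipeline. The class is thus a prediction, and 15 oocytes of each class, 30 in all, were sequenced as 2 libraries per class. SN oocytes carry condensed chromatin around the nucleolus and NSN oocytes do not. Messenger RNA was isolated with oligo(dT), so a level here is that of polyadenylated transcripts, and how the oocytes of a class were divided between its libraries is not stated in the labels.

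The libraries held 32307398 to 37023401 estimated counts, and the initiation factor genes took 0.969% to 1.02% of them. At this depth a floor of 3 counts equals 0.081 to 0.0929 CPM (here counts scaled to the total of the library). All other CPM are also scaled by TMM, a scaling between libraries. Its factors were 1.028 and 1.076 for NSN and 0.8963 and 1.009 for SN. Floors and the intervals below leave out any error of dividing reads among near-identical models. All 8 oocyte markers examined were in the table, and their summed level was 22740 and 20180 CPM for NSN and 28650 and 22690 CPM for SN. The 10 granulosa and cumulus markers summed to 92.5 and 80.9 CPM for NSN and to 85.4 and 87.3 CPM for SN. Of those 10, Foxl2 had under 3 counts in all libraries. The theca and stroma list, with 5 of 6 genes in the table, summed to 6.93 and 8.23 CPM for NSN and to 6.33 and 5.83 CPM for SN, lower in both SN libraries. The blood, immune and endothelial list, also 5 of 6, summed to 15.8 and 16.8 CPM for NSN and to 17.5 and 19.6 CPM for SN. This sum was higher in both SN libraries on this scale only. Scaled to library totals alone, the sum of SN replicate 1 was not above the NSN libraries. Single genes of the list differed. Hba-a1 had 0 and 0 counts for NSN and 18.2 and 26.0 for SN, and Hbb-bs 0 and 1, and 2.6 and 6.6. Cd68 had 71 and 42 for NSN and 100 and 89 for SN. Pecam1, the most abundant, had 453 and 544, and 461 and 606, and Ptprc 1 and 0, and 0 and 1. The part of these lists in the differences below was not tested.

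Most initiation factor genes were abundantly represented. Levels of different genes are given in TPM, transcript abundances corrected for length and scaled to a common sum, added up over the models of a gene. On this scale 50 of the 53 genes had a mean of at least 1 TPM over the 4 libraries, 43 reached 10 TPM and 20 reached 100 TPM. The last group was 37.7% of the initiation factor genes, against 8.44% of all genes in the table. The median over the 53 genes was 59.9 TPM. Eif1 and Eif1b stood at ranks 133 and 134 of all genes, Eif5a at 279, Eif2b1 at 311 and Eif3m at 312. Only Eif4a3l1, whose coding sequence is 96.2% identical to that of Eif4a3, was under 3 counts in any library: its NSN libraries had 1.0 and 1.0 counts and its SN libraries 5.3 and 0.0.

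**Figure D1:**
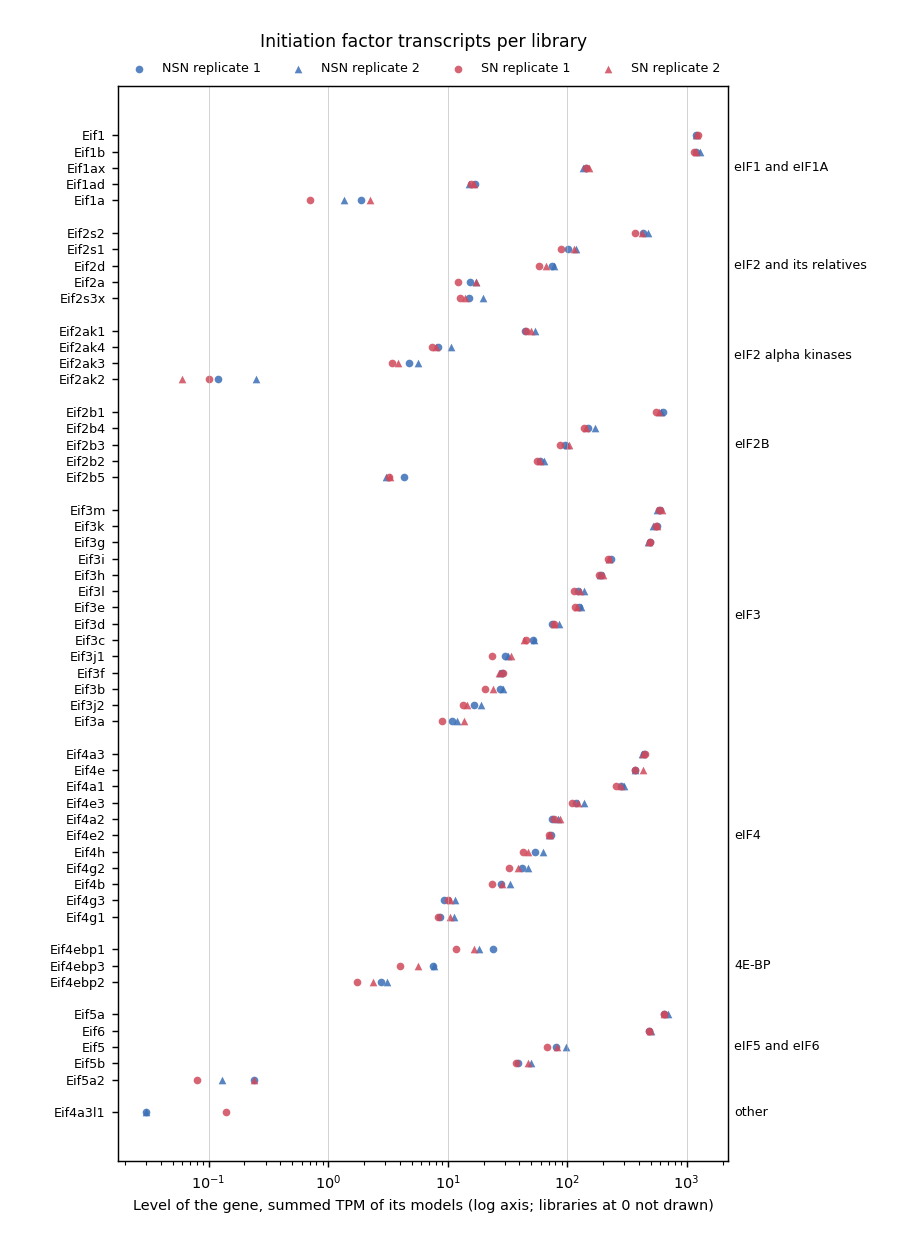
Level of each of the 53 genes in each library as summed TPM on a log axis, grouped by role; circles are replicate 1, triangles replicate 2, blue NSN and red SN. The libraries lie close together for most genes, whereas subunits of the same complex are spread widely: eIF3 runs from a mean of 11.4 TPM for Eif3a to 594.8 TPM for Eif3m.

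The difference between the chromatin classes was tested on counts, with all 13426 genes that passed the filter on low counts in 1 fit. Of the 53 genes 52 were tested, all but Eif4a3l1. edgeR's quasi-likelihood test called 0 of 52 at an adjusted p under 0.05, and it called 0 of 13426 genes (0%). At an unadjusted p under 0.05 there were 2 initiation factor genes, Eif4a2 and Eif4e, both higher in SN, where 7.48% of all genes reached that p (4.01% higher and 3.46% lower). These counts turned with the scaling. With library size alone 0 of the 52 genes were higher and 7 lower at that p (1.18% and 9.33% of all genes), with log2(TPM + 1) 0 of 50 were higher and 4 lower (1.36% and 7.99%), with log2(TPM + 0.1) 0 and 3 (1.36% and 7.92%), and with cyclic loess 0 and 2 of 52 (3.96% and 3.17%). Other tools gave the same count of 0 for the initiation factor genes: DESeq2 called 46 of the 898 genes to which it gave an adjusted p (5.12%) and 0 of the 18 initiation factor genes among them, and limma-voom called 0 of 13426 and 0 of 52. Nothing in the labels says that the libraries came from separate animals, so these p-values measure the spread between libraries, which may be technical. In pooled oocytes, less of a transcript in each oocyte and fewer oocytes that carry it cannot be told apart.

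The intervals show how large a difference these libraries leave room for under the TMM scaling, which they take as fixed. They rest on the same spread between libraries as the p-values, which may be technical. With library size alone the median log2 of the 52 genes was -0.078, against 0.067 with TMM, and intervals under other scalings are not given. The 95% interval of the SN over NSN ratio lay within 1.5-fold in either direction for 45 of the 52 genes (against 54.5% of all genes tested) and within 2-fold for 48. On this scaling all 14 eIF3 genes, all 11 eIF4 genes, all 5 eIF2B genes and all 5 genes of eIF2 and its relatives were within 1.5-fold. The 7 genes outside it were the 3 4E-BPs, Eif2ak2, Eif2ak3, Eif1a and Eif5a2, which were among the least abundant of the set. The depth behind the intervals follows from the counts: Eif1 had 29331.6 to 36501 counts in a library and Eif5a2 13 to 33.

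Across the 52 genes the median log2 of SN over NSN was 0.067, with 33 higher and 19 lower in SN, where all genes had a median of -0.011 and 48% were higher. This median was below 0 with library size alone (-0.078) and on log2(TPM + 1) and log2(TPM + 0.1) (-0.108 in each), settings in which the median of all genes was also lower, at -0.154, -0.156 and -0.176. Both SN libraries were above both NSN libraries for 14 of the 52 genes (18.3% of all tested genes), and below for 10 (20.7% of all tested genes). Of the eIF3 genes 11 of 14 lay higher in SN (median log2 0.137), and of the eIF4 genes 8 of 11 (median log2 0.087); with library size alone these medians were -0.010 and -0.055, and with log2(TPM + 1) they were -0.036 and -0.08. Leaving out SN replicate 1 gave 0.051 for eIF3 and 0.055 for eIF4, leaving out NSN replicate 2 gave 0.072 for eIF3, and leaving out NSN replicate 1 gave 0.054 for eIF4. The median of all 52 was 0.039 without SN replicate 1.

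**Figure D2:**
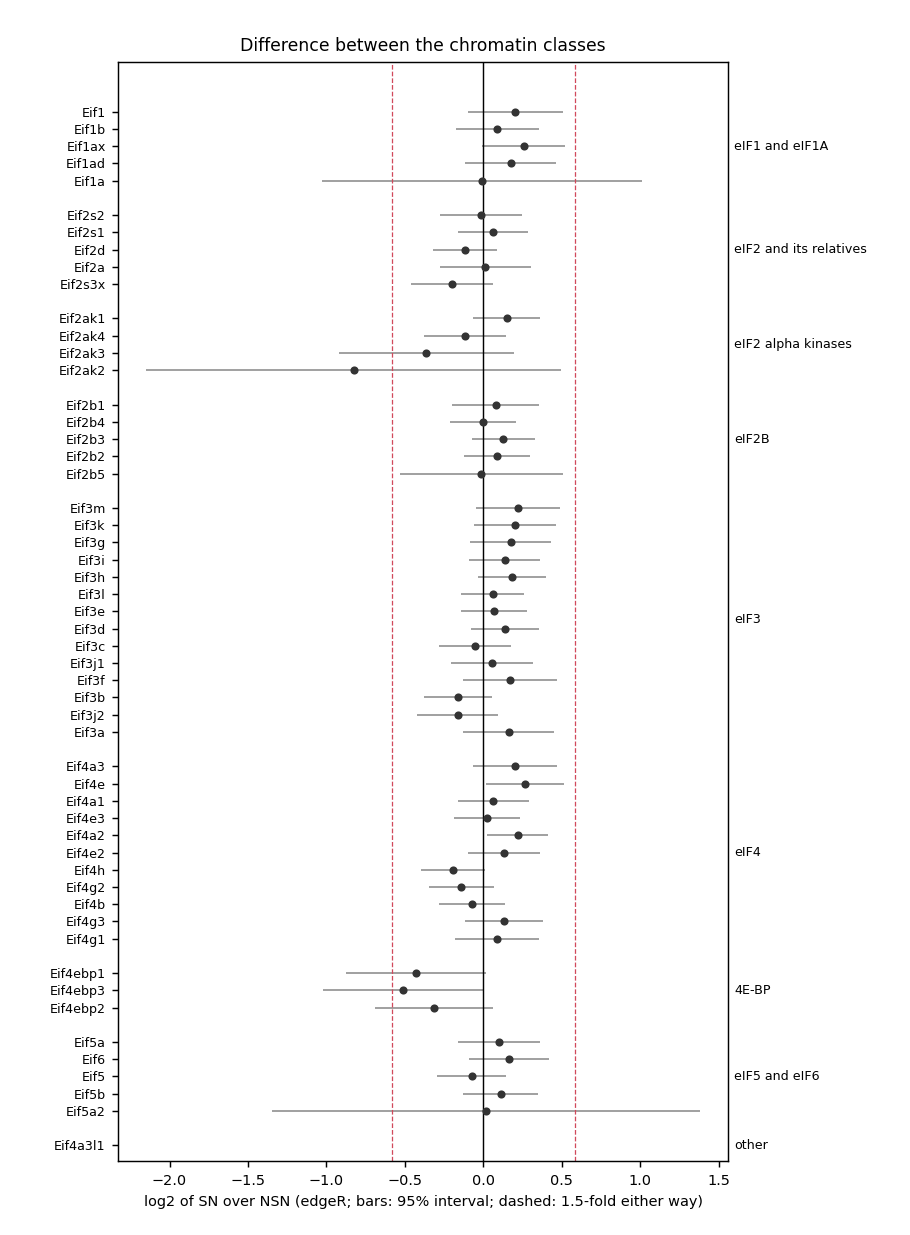
Log2 of SN over NSN for each gene from edgeR with TMM scaling, with its 95% interval as a bar, grouped by role. Dashed lines mark 1.5-fold in either direction and Eif4a3l1 was not tested. All intervals but those of Eif4a2 and Eif4e cross 0, those of eIF3, eIF4, eIF2 and eIF2B stay within the dashed lines, and those of the 3 4E-BPs lie mostly below 0.

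In the table as a whole the direction of a gene's difference went with its abundance. Among the initiation factor genes it did so above a log2 CPM of 6 and below 4, with only 4 genes in each range below 4. Among all genes between a log2 CPM of 8 and 10 the median log2 of SN over NSN was 0.127 and 84.3% were higher in SN. Of the 13 initiation factor genes in that range, 12 were higher, with a median of 0.173. Between 6 and 8, 60.3% of all genes and 12 of 19 initiation factor genes were higher. Between 4 and 6 the set did not follow the table: 8 of 12 initiation factor genes were higher (median 0.07), against 44.9% of all genes (median -0.023). Between 2 and 4, 39.9% of all genes and 0 of 4 initiation factor genes were higher, and those 4 had a median of -0.373 against -0.056 for all genes in the range. The 4 are the 3 4E-BPs and Eif2b5. Below 2, 44.45% of all genes and 1 of 4 initiation factor genes were higher, with medians of -0.054 and -0.186. The part of abundance in the difference of any single gene was not tested.

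**Figure D3:**
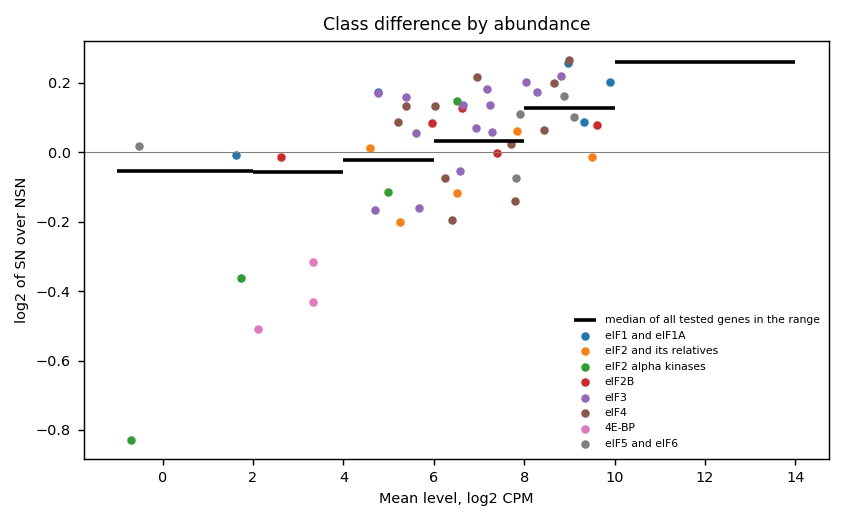
Log2 of SN over NSN against the mean level of each initiation factor gene in log2 CPM, coloured by role, with black lines at the median of all tested genes in each range of level. The lines lie at -0.054 below a log2 CPM of 2 and at 0.259 above 10, and the 3 4E-BPs lie below the lines of their range.

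Eif1 and Eif1b encode near-identical forms of eIF1, which guards the choice of start codon. Eif1 (chromosome 11, 100319949 to 100322099, GRCm38) was at 1209 and 1198 TPM for NSN and at 1242 and 1215 TPM for SN. Eif1b (chromosome 9, 120492606 to 120495327) was at 1193 and 1303 TPM for NSN and at 1160 and 1199 TPM for SN. The ranges overlapped, and Eif1 made up 47.9% to 51.7% of their sum in every library. The coding sequences are shown because this equal split rests on telling the genes apart: over 339 coding bases they were 81.1% identical and shared no identical run longer than 25 bases. In the first 150 coding bases (GENCODE M21) capitals mark the 25 bases that differ.
Eif1: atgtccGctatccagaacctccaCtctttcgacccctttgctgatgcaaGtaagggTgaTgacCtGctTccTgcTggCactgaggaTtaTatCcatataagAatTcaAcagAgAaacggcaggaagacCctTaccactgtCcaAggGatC
Eif1b: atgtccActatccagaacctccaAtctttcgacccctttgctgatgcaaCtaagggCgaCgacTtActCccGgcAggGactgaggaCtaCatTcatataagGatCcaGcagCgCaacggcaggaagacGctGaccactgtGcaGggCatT
Differences lie along the whole stretch. On the CPM scale Eif1 was at 928.4 and 838.3 for NSN and at 1100 and 934 for SN, and its log2 of SN over NSN was 0.20 (SE 0.14). Eif1b had a log2 of 0.09 (SE 0.12).

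Among the other genes of this group, nearly all eIF1A came from the X chromosome. Eif1ax (chromosome X, 159372178 to 159389621), which encodes the eIF1A that helps scanning, made up 98.6% to 99.5% of its sum with Eif1a. Eif1ax was at 483.9 and 421.6 CPM for NSN and at 565.7 and 515.9 CPM for SN. Both SN libraries were above both NSN libraries, and the log2 was 0.26 (SE 0.12, edgeR adjusted p = 0.665), or 0.16 without NSN replicate 2. Eif1a was the lowest of the group at 1.89 and 1.35 TPM for NSN and at 0.70 and 2.23 TPM for SN, so its classes overlapped. The 2 genes were 85.6% identical in coding sequence. Eif1ad, which encodes a protein with an eIF1A-like domain, lay between at a mean of 16.1 TPM.

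The 3 subunits of eIF2 differed widely in level. Eif2s2 (chromosome 2, 154871410 to 154892906), the β subunit, was at 428.2 and 474.9 TPM for NSN and at 370.7 and 420.7 TPM for SN. Eif2s1, the α subunit that the stress kinases phosphorylate, had a mean of 105.8 TPM. Eif2s3x (chromosome X, 94188709 to 94212651), the γ subunit that binds the tRNA and GTP, was lowest at 15.1 and 19.8 TPM for NSN and at 12.7 and 14.1 TPM for SN. The order β, α, γ held in every library without overlap, and Eif2s2 exceeded Eif2s3x 24.0 to 29.9 times. Between the classes, Eif2s3x was at 37.2 and 44.4 CPM for NSN and at 36.2 and 34.8 CPM for SN. Its SN libraries were both lower, by a log2 of -0.20 (SE 0.12, edgeR adjusted p = 0.719), and the log2 was -0.07 without NSN replicate 2 and -0.32 without NSN replicate 1. Eif2s1 and Eif2s2 had a log2 of 0.06 (SE 0.10) and -0.01 (SE 0.12). The tRNA-binding relatives Eif2a and Eif2d, which can deliver tRNA without eIF2, had means of 15.5 and 69.4 TPM and a log2 of 0.01 (SE 0.13) and -0.12 (SE 0.09).

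The kinases that phosphorylate eIF2α were led by Eif2ak1, which encodes the heme-regulated kinase HRI. Eif2ak1 (chromosome 5, 143817792 to 143902717) was at 44.1 and 53.6 TPM for NSN and at 45.7 and 49.6 TPM for SN. Eif2ak4, the kinase GCN2 that senses amino acid shortage, was at 8.35 and 10.7 TPM for NSN and at 7.44 and 7.96 TPM for SN. Eif2ak3, the endoplasmic reticulum stress kinase PERK, was at 4.77 and 5.68 TPM for NSN and at 3.44 and 3.86 TPM for SN. This rests on 91 to 130 counts in a library. The effective length of its leading model was 0.758 kb, against 5.004 kb for Eif2ak4. The Eif2ak3 TPM, and its share among the kinases, may thus not give the level of a longer transcript of the gene. Eif2ak2, the kinase PKR that senses double-stranded RNA, was near the limit of detection. It was at 0.12 and 0.25 TPM for NSN and at 0.10 and 0.06 TPM for SN, from 10.8 to 30 counts in a library. The order of the 4 held in every library, and Eif2ak1 made up 76.3% to 80.7% of their sum. Its ratio to Eif2ak2 was 364.2, or 1468 from curated models alone, since 24.5% of the Eif2ak2 level came from those.

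Between the classes Eif2ak1 had a log2 of 0.15 (SE 0.10), which was -0.03 on both TPM settings. Eif2ak2, Eif2ak3 and Eif2ak4 had a log2 of -0.83 (SE 0.61), -0.36 (SE 0.26) and -0.12 (SE 0.12). On the CPM scale both SN libraries were below both NSN libraries for Eif2ak2 and Eif2ak3, above for Eif2ak1, and the classes overlapped for Eif2ak4. edgeR adjusted p-values of the 4 kinases were 0.734 to 0.838. Without SN replicate 2 the log2 of Eif2ak2 was -0.47, and without SN replicate 1 it was -1.26. The log2 of Eif2ak4 was -0.005 without NSN replicate 2 and -0.22 without NSN replicate 1.

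The guanine nucleotide exchange factor eIF2B is built from 5 subunits in equal number, yet their transcripts were far from equal. Eif2b1 (chromosome 5, 124570214 to 124579131), which encodes the regulatory α subunit, was at 630.9 and 611.1 TPM for NSN and at 559.3 and 589.2 TPM for SN. Eif2b5 (chromosome 16, 20498795 to 20509325), which encodes the catalytic ε subunit, was at 4.34 and 3.06 TPM for NSN and at 3.26 and 3.27 TPM for SN. Eif2b4, Eif2b3 and Eif2b2 lay between with means of 150.6, 97.3 and 59.9 TPM. No neighbours in this order overlapped in the 4 libraries, and Eif2b1 exceeded Eif2b5 145.4 to 199.7 times within a library. On the CPM scale of the test the classes overlapped for Eif2b1, Eif2b4 and Eif2b5, whereas in TPM both SN libraries were below both NSN libraries for Eif2b1 and Eif2b4. The log2 values of the 5 ran from -0.01 to 0.13 (edgeR adjusted p of at least 0.758).

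The promoter windows of the highest and the lowest eIF2B gene are shown for comparison, each from 250 bases before to 50 bases after a transcription start that RefSeq annotates (GRCm38.p6), of which a gene can have several, with CG pairs in capitals. The Eif2b1 window is chr5:124579082-124579381 on the minus strand and holds 31 CG pairs, 1.22 times the number its C and G content would give by chance. The Eif2b5 window is chr16:20498567-20498866 on the plus strand and holds 9 CG pairs, 0.411 times that number.
Eif2b1: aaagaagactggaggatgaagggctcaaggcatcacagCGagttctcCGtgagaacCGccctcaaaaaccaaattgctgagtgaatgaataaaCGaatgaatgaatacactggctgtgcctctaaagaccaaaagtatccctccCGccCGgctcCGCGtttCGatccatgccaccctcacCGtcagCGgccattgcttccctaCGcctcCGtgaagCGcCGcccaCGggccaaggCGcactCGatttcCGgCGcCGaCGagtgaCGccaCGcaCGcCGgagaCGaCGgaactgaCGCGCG
Eif2b5: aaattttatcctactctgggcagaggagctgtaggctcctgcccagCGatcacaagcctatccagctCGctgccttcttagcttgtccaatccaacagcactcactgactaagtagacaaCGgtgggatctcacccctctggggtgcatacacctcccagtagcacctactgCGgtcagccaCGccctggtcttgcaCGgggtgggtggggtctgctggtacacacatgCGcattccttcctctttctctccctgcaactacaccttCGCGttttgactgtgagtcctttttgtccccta
The same ratio was 0.748 for Eif2b2 and 0.797 for Eif2b4, and Eif2b3 is not among the windows used. The table held 52 windows of 42 initiation factor genes. Their median ratio was 0.859, against 0.384 over all 32851 windows of 27025 genes, and 90.4% were over 0.6 against 35.8% of all windows. The windows of all genes were not limited to genes with a level in these libraries, and the part of this in the gap was not tested. Over the 42 genes, each with its window of highest ratio, the ratio had a Spearman correlation with mean TPM of 0.353, given as a description only.

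The eIF3 genes spanned 52.2-fold in mean level. Eif3m (chromosome 2, 104999656 to 105017027), a subunit of the octameric core, was highest at 604.3 and 563.3 TPM for NSN and at 588.4 and 623.1 TPM for SN. Eif3a (chromosome 19, 60761116 to 60790693), the largest subunit and a scaffold of the complex, was lowest at 10.8 and 11.97 TPM for NSN and at 8.99 and 13.8 TPM for SN. Below Eif3m came Eif3k (553 TPM) and Eif3g (488 TPM), then Eif3i, Eif3h, Eif3l and Eif3e (226.3 to 123.5 TPM), and Eif3d, Eif3c, Eif3j1, Eif3f, Eif3b and Eif3j2 (78.9 to 15.9 TPM). Neighbours overlapped for Eif3m with Eif3k, Eif3l with Eif3e, Eif3j1 with Eif3f, Eif3f with Eif3b, and Eif3j2 with Eif3a. The other steps of the order held in all 4 libraries. Across the 14 genes the level fell with transcript length, with a Spearman correlation of TPM with effective length of -0.859. It was -0.503 over the 50 initiation factor genes with a length and -0.338 over 10086 genes with a mean of at least 1 TPM. These correlations describe genes that share the same libraries and length correction, and they carry no test.

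The eIF3 genes with the smallest unadjusted p lay in both directions. Eif3h was at 143.9 and 127.2 CPM for NSN and at 158.9 and 148.6 CPM for SN. Eif3m was at 450.4 and 382.5 CPM for NSN and at 505.9 and 464.7 CPM for SN. In both genes each SN library was above each NSN library, with a log2 of 0.18 (SE 0.10) and 0.22 (SE 0.12) and an edgeR adjusted p = 0.708 for each. In TPM the classes overlapped for both. Eif3k, which together with Eif3l sits at the edge of the core, was at 267.3 and 221.7 CPM for NSN and at 300.7 and 261.8 CPM for SN, so the classes overlapped (log2 0.20, SE 0.12). NSN replicate 2 was the lowest library for these 3 genes, and without it the log2 was 0.10 for Eif3h, 0.11 for Eif3m and 0.07 for Eif3k. Without NSN replicate 1 it was 0.27, 0.34 and 0.34. Eif3b, the scaffold partner of Eif3a, Eif3g and Eif3i, was at 55.0 and 53.2 CPM for NSN and at 48.2 and 48.6 CPM for SN. Its SN libraries were both lower, by a log2 of -0.16 (SE 0.10, edgeR adjusted p = 0.726). The copies Eif3j1 and Eif3j2 were 100% identical over 783 aligned coding bases, so how their reads were divided, and the level of each, is uncertain.

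The genes of the cap-binding complex also differed in level. Of the eIF4A helicases, Eif4a3 (chromosome 11, 119288363 to 119300043), a core protein of the exon junction complex, was highest at 437.2 and 426.1 TPM for NSN and at 446.6 and 431.2 TPM for SN. Eif4a1, the main helicase of initiation, had a mean of 281.2 TPM. Eif4a2 (chromosome 16, 23107468 to 23114132), its paralog, was lowest at 75.5 and 84.0 TPM for NSN and at 78.0 and 87.1 TPM for SN. Among the cap-binding proteins Eif4e (chromosome 3, 138526191 to 138559696) was at 372.4 and 371.7 TPM for NSN and at 367.0 and 435.1 TPM for SN. Eif4e2, whose product binds the cap but not eIF4G, was lowest at 73.4 and 70.9 TPM for NSN and at 70.6 and 72.2 TPM for SN, and Eif4e3 had a mean of 123.3 TPM. The scaffold genes were lower: Eif4g2 (chromosome 7, 111067985 to 111083030), which lacks the eIF4E-binding region, was at 41.9 and 47.5 TPM for NSN and at 32.8 and 38.8 TPM for SN. Eif4g1 (chromosome 16, 20672720 to 20692883) was at 8.69 and 11.4 TPM for NSN and at 8.29 and 10.5 TPM for SN, and overlapped with Eif4g3 (mean 10.4 TPM).

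Some of these levels rest on predicted transcript models. Curated models gave only 2.97% of the TPM of Eif4e, 16.3% of Eif4g1 and 47.2% of Eif4e2, although 44 of the 53 genes had at least 90% from curated models. The ratio of Eif4e to Eif4e2 was 5.39 with all models and 0.339 with curated models only. For curated values the predicted models were dropped and the reads were not divided anew. Such a ratio compares parts of genes, so 0.339 does not give the order of their whole levels. Eif4g2 exceeded Eif4g1 4.14 times, or 25.3 times with curated models only, and Eif4a3 exceeded Eif4a2 5.37 times, or 7.98 times.

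The 2 genes with an unadjusted p under 0.05 between the classes were both in this group. Eif4a2 was at 114.1 and 114.3 CPM for NSN and at 134.0 and 131.6 CPM for SN. Each SN library was above each NSN library, and the log2 was 0.22 (SE 0.09, 95% interval 0.02 to 0.41; edgeR unadjusted p = 0.033, adjusted p = 0.662). Eif4e was at 479.0 and 439.3 CPM for NSN and at 544.6 and 560.4 CPM for SN. Here too the classes did not overlap, with a log2 of 0.27 (SE 0.11, 95% interval 0.02 to 0.52; edgeR unadjusted p = 0.038, adjusted p = 0.662). Both separations belong to the CPM scale of the test, since in TPM the classes overlapped for both genes. With library size alone the log2 was 0.07 for Eif4a2 and 0.13 for Eif4e. With log2(TPM + 1) these values were 0.05 and 0.10, and with curated models only 0.15 and 0.07. Eif4h, a cofactor of the helicase, was at 87.8 and 93.6 CPM for NSN and at 81.3 and 77.3 CPM for SN, lower in both SN libraries by a log2 of -0.19 (SE 0.09, edgeR adjusted p = 0.676). The other helicase cofactor, Eif4b, had a log2 of -0.07 (SE 0.10). Eif4a1, Eif4g1, Eif4g2 and Eif4g3 had log2 values of 0.06 (SE 0.10), 0.09 (SE 0.12), -0.14 (SE 0.10) and 0.13 (SE 0.11).

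The 4E-BPs, which keep eIF4E from eIF4G until they are phosphorylated, were the role group with the lowest median log2, -0.43, with 0 of 3 higher in SN. Eif4ebp3 (chromosome 18, 36664060 to 36666324) was at 5.21 and 4.86 CPM for NSN and at 3.195 and 3.87 CPM for SN. Eif4ebp2 (chromosome 10, 61428491 to 61452790) was at 10.5 and 11.5 CPM for NSN and at 7.90 and 9.72 CPM for SN. In both genes each SN library was below each NSN library, with a log2 of -0.51 (SE 0.24, edgeR adjusted p = 0.662) and -0.32 (SE 0.17, edgeR adjusted p = 0.708). Eif4ebp1 (chromosome 8, 27260327 to 27275656) was at 13.6 and 9.37 CPM for NSN and at 7.60 and 9.46 CPM for SN. Its classes overlapped, since SN replicate 2 was slightly above NSN replicate 2, and the log2 was -0.43 (SE 0.20, edgeR adjusted p = 0.666). That value was -0.14 without NSN replicate 1 and -0.68 without NSN replicate 2. Without SN replicate 1 the log2 of Eif4ebp2 was -0.17, and that of Eif4ebp1 was -0.28. All 3 genes kept their direction in every alternative that gave them a value. They are among the 12 genes picked by p in these same libraries, so this says little about stability. With 2 libraries per class none passed the threshold in any alternative that gave an adjusted p, and DESeq2 gave them none.

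Some markers of granulosa cells were ordered like Eif4ebp1 and others were not. NSN replicate 1 was highest and SN replicate 1 lowest for Eif4ebp1 and also for Inha, an inhibin subunit, with counts of 378 and 141 for NSN and of 123 and 242 for SN. The same held for Amh, the anti-Müllerian hormone of granulosa cells, with counts of 11 and 2 for NSN and 0 and 7 for SN. It held too for Fst, with 47 and 15 for NSN and 10 and 16 for SN. Other markers of the list were ordered otherwise in these counts, which are not scaled to the greater depth of the SN libraries. Hsd17b1 had 57 and 20 for NSN and 21 and 24 for SN, and Inhba 6 and 14, and 7 and 5. Kitl had 209 and 223 for NSN and 192 and 261 for SN, and Nr5a2 803 and 865, and 748 and 930. Cyp19a1, the estrogen-making aromatase and the most abundant of the 10, had counts of 1367 and 1449 for NSN and of 1546 and 1647 for SN. Scaled to library totals its classes overlapped. Fshr, the FSH receptor, had counts of 193 and 101 for NSN and of 187 and 117 for SN. The summed list, given above, did not separate the classes, and its part in the values of Eif4ebp1 was not tested.

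Set side by side, the Eif4e and 4E-BP transcripts gave a ratio that did not overlap between the classes. The comparison was chosen after the values were seen and is a description with no test. Eif4e TPM divided by the summed TPM of the 3 4E-BPs was 10.8 and 12.8 in NSN and 21 and 17.5 in SN. The 4E-BP sum was 34.5 and 29.1 TPM for NSN and 17.5 and 24.8 TPM for SN, whereas on the TPM scale Eif4e was higher in SN replicate 2 alone. From curated models only, which hold 2.97% of the Eif4e level, the ratio was 0.348 and 0.486 for NSN and 0.646 and 0.534 for SN. That ratio sets a small part of Eif4e against the curated part of the 4E-BPs, so its size depends on the models counted. Within the 4E-BPs, Eif4ebp1 made up 62.6% to 70.0% of the TPM, at 24.2 and 18.2 TPM for NSN and at 11.7 and 16.8 TPM for SN. Eif4ebp2 was lowest at 2.78 and 3.14 TPM for NSN and at 1.76 and 2.40 TPM for SN. Only 3.17% of the Eif4ebp2 level came from curated models, and its ratio to Eif4ebp1, 7.03 in favour of Eif4ebp1, was 221.5 with curated models only. Summed eIF4G transcripts were at 59.95 and 70.4 TPM for NSN and at 51.3 and 59.8 TPM for SN.

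**Figure D4:**
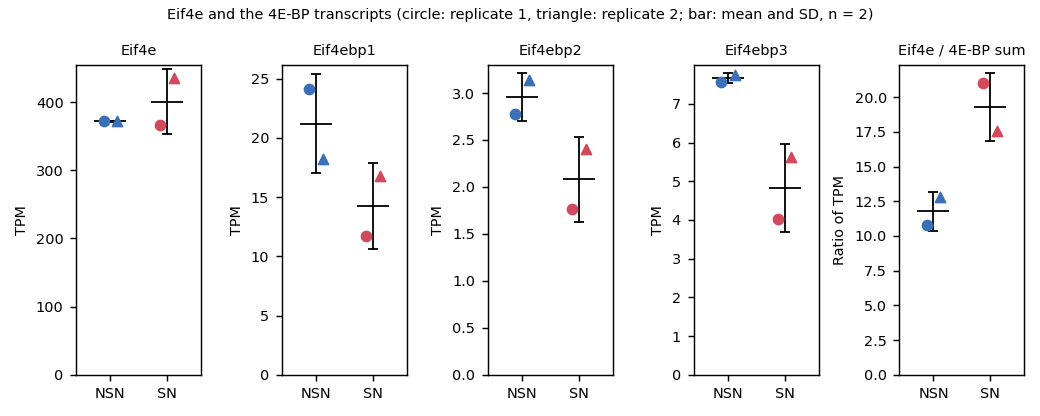
TPM of Eif4e and of each 4E-BP gene, and the ratio of Eif4e to the summed 4E-BPs, in each library; circles are replicate 1, triangles replicate 2, and bars give the mean and SD over 2 libraries of a class. In TPM the 4E-BP values lie lower in SN and the ratio is 10.8 and 12.8 in NSN and 21 and 17.5 in SN, with no test made of it. On the CPM scale of the class test the classes overlapped for Eif4ebp1.

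In the last group Eif5a, whose product carries the modified amino acid hypusine and aids elongation, was highest. Eif5a (chromosome 11, 69916712 to 69921958) was at 649.2 and 701.2 TPM for NSN and at 641.6 and 645.6 TPM for SN. Its paralog Eif5a2 was at 0.24 and 0.13 TPM for NSN and at 0.08 and 0.24 TPM for SN, under 0.04% of their sum in every library. Eif6, which keeps the large ribosomal subunit from joining too early, had a mean of 492.7 TPM. Eif5, the GTPase activator of eIF2, and Eif5b, the GTPase of subunit joining, had means of 81.8 and 43.1 TPM. No neighbours in this order overlapped, and log2 values between the classes ran from -0.07 for Eif5 to 0.16 for Eif6 (edgeR adjusted p of at least 0.757).

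Isoform shares within a gene were tested in 22 of the 26 genes with several models, against 7000 genes in all. edgeR's diffSpliceDGE, with a Simes p per gene, called 0 of the 22 at an adjusted p under 0.05, and 0.429% of all genes. At an unadjusted p under 0.05 there was 1 of the 22, Eif5a (edgeR adjusted p = 0.0915), where 7.06% of all genes reached that p. The main Eif5a model, NM_181582, held 79.5% and 78.6% of the counts of the gene in NSN and 74.4% and 78.7% in SN. NM_001166595 held 12.6% and 11.7% in NSN and 18.9% and 13.99% in SN, and NM_001166596 held 4.13% and 5.69% in NSN and 1.97% and 3.12% in SN. The former was higher in both SN libraries and the latter lower in both. The predicted model XM_030246051 was at 0 in both NSN libraries and had 89.1 and 83.0 counts for SN, under 0.5% of the gene. Without it and the other predicted models the adjusted p of Eif5a was 0.854, and with a library left out it was 0.345 to 0.895.

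The scaffold gene Eif4g2 had the next smallest p, followed by Eif4e3 and Eif2b4, and the edgeR adjusted p of each was 1. Its model NM_001040131 held 29.5% and 31.0% of the counts in NSN and 22.6% and 21.3% in SN, lower in both SN libraries. Eif4e3 drew 97.2% and 96.6% in NSN and 99.2% and 98.4% in SN from 1 curated model. In Eif2b4 the main model held 98.7% and 98.5% in NSN and 98.2% and 97.6% in SN. For Eif4e, chosen after its values were seen, the predicted model XM_006500993 held 92.0% and 90.9% of the counts in NSN and 92.4% and 92.5% in SN. Of 157 initiation factor models in the authors' deposited table, 13 had a p under 0.05 (8.28%), 7 higher and 6 lower in SN, against 8.36% of 47854 models. The smallest there was that of NM_001040131 of Eif4g2, with a log2 of -0.62 (p = 2.46e-10 in the authors' deposited table, unadjusted).

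**Figure D5:**
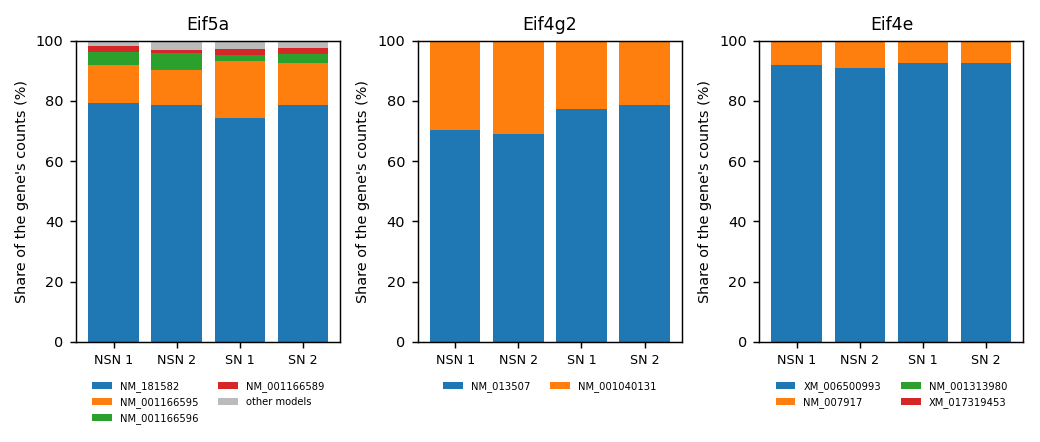
Share of the counts of Eif5a, Eif4g2 and Eif4e held by each transcript model in each library, in percent. The main models keep most of the counts in all libraries, and the share of NM_001040131 of Eif4g2 is 29.5% and 31.0% in NSN against 22.6% and 21.3% in SN.

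Genes that act beside the initiation factors did not pass the test, which called 0 of 13426 genes. Of 30 partners of initiation outside the Eif names, 29 were tested, 0 were called, and 11 were higher and 18 lower in SN, with a median log2 of -0.037. The 2 with the smallest p were Ddit3, a transcription factor of the stress response, and Mcts1, which helps to recycle the small subunit. Ddit3 was at 88.0 and 82.5 CPM for NSN and at 102.1 and 101.6 CPM for SN (log2 0.26, SE 0.09, edgeR adjusted p = 0.662), above NSN in both SN libraries. Mcts1 had a log2 of 0.37 (SE 0.19). For elongation, release and eIF5A modification, 15 of 16 were tested and 0 called, with 6 higher and a median of -0.034. Eef1e1, a cofactor of the tRNA synthetase complex, was at 116.5 and 106.3 CPM for NSN and at 142.5 and 136.1 CPM for SN (log2 0.32, SE 0.09, edgeR adjusted p = 0.662). Eef2, the translocase, had a log2 of -0.20 (SE 0.10). The 10 mitochondrial translation factors had 3 higher and a median of -0.095, with Mrrf, which recycles ribosomes, at 0.23 (SE 0.12) and Tufm, which delivers tRNA, at -0.21 (SE 0.12). At an unadjusted p under 0.05 there were 1 of 29, 1 of 15 and 0 of 10 genes in these lists, where 7.48% of all genes reached that p, and the 2 genes, Ddit3 and Eef1e1, were higher in SN.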

How the data were processed

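Gene expression was measured in 4 libraries of mouse oocytes, 2 per predicted chromatin class. The submitters' processing notes name HISAT2, Bowtie2, RSEM and the build mm10 and give neither role nor version. The authors deposited estimated counts per RefSeq transcript model, as RSEM gives them, of which 59.8% are not whole numbers. They also deposited TPM (abundances per length, scaled to a common sum) and FPKM (fragments per kilobase and depth), the latter used only for effective lengths. Per the file headers the table also holds the authors' log2 ratio of SN over NSN and a p-value per model, with the tool not given in the sources used here.

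Counts were summed per gene ID and rounded. Genes were filtered with filterByExpr, scaled by TMM and tested with edgeR 4.0.16 (R 4.3.3; quasi-likelihood, robust), with Benjamini-Hochberg adjustment over 13426 genes and calls at 0.05. Printed CPM are TMM-scaled. SE and 95% intervals come from the same fit. Isoform shares were tested with diffSpliceDGE over 7000 genes. Alternatives included DESeq2 1.42.0, limma 3.58.1 (voom), other scalings and filters, and leaving out each library. Locations are those of RefSeq GRCm38.p6, matched by gene ID for all 53 genes. Coding sequences are from GENCODE M21 and promoter windows from RefSeq.

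The genes and lists were chosen with earlier results of these data known. Values in every library are given for the highest and lowest gene of each complex, the 12 genes with the smallest unadjusted p, the kinases, the 4E-BPs, any gene under 3 counts in a library, and the 4 smallest isoform p. Of each other list the 2 genes with the smallest p are named.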

Additional observations from a re-analysis of the deposited data

How the results depend on the processing

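No initiation factor gene was called for its level or its isoform shares in any alternative. DESeq2 gave an adjusted p to only 18 of them. Over all genes, the count called was 0, and it was 46 with DESeq2, 15 with library size alone, 15 with no low-count filter, 1 with curated models only, 33 with log2(TPM + 1), 31 with log2(TPM + 0.1) and 2 to 289 with a library left out. The 289 arose when SN replicate 2 was left out, 27 when SN replicate 1 was, and 2 for each NSN library. In those fits 1 class has a single library, assumed to vary like the other class, so a missing call there says little about stability. A replicate block gave 44, and isoform calls fell from 30 to 2 with it. The labels do not say whether same-numbered libraries belong together. Deviations of same-numbered libraries from their class means correlated at 0.029 over 13426 genes. With 2 libraries per class this cannot show whether they share an origin. Under that block 10 of the 52 genes were higher and 1 lower in SN at an unadjusted p under 0.05, where 7.15% and 3.93% of all genes were; library size alone, cyclic loess and both TPM settings gave 0 higher. The median log2 of the 52 genes, 0.067, was 0.022 with cyclic loess, -0.078 with library size alone and -0.108 with each TPM setting. Isoform calls over all genes were 14 with no low-count filter, 0 with curated models only and 0 to 14 with a library left out. With curated models only, the ratio of the highest to the lowest gene was 1468 for the kinases, 7.98 for eIF4A and 0.339 for eIF4E. It was 25.3 for eIF4G and 221.5 for the 4E-BPs. These ratios leave out the predicted models without dividing reads anew, so they compare parts of genes. Of 16 named genes, 15 kept their direction in every alternative that gave a value. The 12 genes picked by the smallest unadjusted p in these same libraries are among them, so a kept direction says little about stability. Eif2ak1 was -0.028 with log2(TPM + 1) and -0.029 with log2(TPM + 0.1). The cause of these changes was not tested. Depth limits Eif2ak2, Eif5a2 and Eif4a3l1.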
